A study of Homo sapiens with 12 samples.

Results

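The miR-181 family of microRNAs was followed through small RNA sequencing libraries of human breast cancer cells and of the extracellular vesicles (EVs) that they released. Its members were taken by name from the deposited count table: hsa-miR-181a-5p, hsa-miR-181a-3p, hsa-miR-181a-2-3p, hsa-miR-181b-5p, hsa-miR-181c-5p, hsa-miR-181c-3p and hsa-miR-181d-5p (below mostly without the species prefix hsa), which are 7 of the 2588 miRNAs listed there. All 7 had at least 1 count in each of the 12 libraries, and all 7 passed the filter on low counts in each fit. The libraries came from 3 lines made from MDA-MB-231, an established breast cancer line with mesenchymal features. The control line carried an empty lentiviral vector. The RAB27A knockdown line carried a lentiviral short hairpin RNA against RAB27A, a small GTPase that helps to dock multivesicular compartments at the plasma membrane before vesicles are released. In the miR-122 knockout line the miR-122 gene was edited by CRISPR-Cas9 with 2 guide RNAs; whether this line also carried the empty vector, and whether any of the lines was a single clone, is not given in the sources used here. Each line gave 2 libraries of cells and 2 of EVs, so that the design holds 6 groups. Cells were grown with fetal bovine serum, EVs were pelleted by ultracentrifugation from medium conditioned for 24 h with bovine serum albumin in place of serum, and the cells were collected at the same time. Nothing in the labels ties the 2 libraries of a group to separate cultures, and all p-values therefore reflect the scatter of these libraries alone, which may be technical.

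MicroRNAs are cut from hairpin precursors, and the retained arm guides Argonaute proteins to messenger RNAs, mainly by pairing through its seed, bases 2 to 8. In the miR-181 family the 5p arm is generally the main product and the 3p arm is usually discarded. The family is best known from lymphocyte development, where miR-181a tunes the sensitivity of the T cell receptor, and in breast cancer cells it has been studied downstream of TGF-beta signalling.

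The mature sequences are shown because the members differ by few bases and because the seed sorts them into groups. They were taken from RefSeq (GRCh38.p14), which held all 7 members, and the capitals mark the seed.
miR-181a-5p: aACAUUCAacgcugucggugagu
miR-181b-5p: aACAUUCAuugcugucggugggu
miR-181d-5p: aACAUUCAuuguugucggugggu
miR-181c-5p: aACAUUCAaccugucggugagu
miR-181a-3p: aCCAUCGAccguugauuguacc
miR-181a-2-3p: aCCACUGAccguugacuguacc
miR-181c-3p: aACCAUCGaccguugaguggac
The 4 members of the 5p arm share the seed ACAUUCA, which only 5 of the 2370 mature names in the reference table carry. The other carrier of that seed, miR-4262, had no count in any of the 12 libraries. With positions counted from 1 at the 5′ end, miR-181b-5p differs from miR-181a-5p by A9U, C10U and A21G. miR-181d-5p differs from miR-181b-5p by the single substitution C12U, and miR-181c-5p is miR-181a-5p without base 11. The 3p arms do not share a seed: miR-181a-2-3p differs from miR-181a-3p by U5C, C6U and U16C, of which U5C and C6U lie in the seed. How the authors' mapping treated mismatches and reads that match more than 1 member is not given in the sources used here, so reads of near-identical members may have been shared between them, and this was not tested. It touches miR-181d-5p beside miR-181b-5p, with 3337 and 99098 counts over the 12 libraries, and miR-181c-5p beside miR-181a-5p, with 875 and 349443 counts, so that a small share of reads assigned to the wrong member would weigh on the rarer one.

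The hairpins of the miR-181a genes are shown because they give the same 5p arm and different 3p arms, so that miR-181a-3p and miR-181a-2-3p report on 1 gene each while miR-181a-5p sums over both. Capitals mark the mature arms.
MIR181A1: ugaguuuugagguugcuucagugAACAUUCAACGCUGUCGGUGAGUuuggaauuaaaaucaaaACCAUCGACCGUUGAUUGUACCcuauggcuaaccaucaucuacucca
MIR181A2: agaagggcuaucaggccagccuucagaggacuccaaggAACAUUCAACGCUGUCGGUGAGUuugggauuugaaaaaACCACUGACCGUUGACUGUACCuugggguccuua
The deposited table was made on hg19, per the submitters' processing notes, and the positions given here are those of GRCh38. MIR181A1 lies on the minus strand at chr1:198859044-198859153, 61 bases from MIR181B1 at chr1:198858873-198858982, and GENCODE v29 places both in an intron of the long non-coding gene MIR181A1HG. MIR181A2 lies on the plus strand at chr9:124692442-124692551, and with MIR181B2 it is in an intron of MIR181A2HG and antisense to an intron of the protein-coding gene NR6A1. MIR181C (chr19:13874699-13874808) and MIR181D (chr19:13874875-13875011) lie on the plus strand 66 bases apart, in an intron of NANOS3 on the same strand. miR-181b-5p, like miR-181a-5p, comes from 2 genes with identical mature sequences, whereas miR-181c-5p and miR-181d-5p come from 1 gene each.

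Total counts ran from 3140610 to 11840597 in the cell libraries and from 2387336 to 3754673 in the control and knockout EVs, but were only 164656 and 170366 in the knockdown EVs. There, 1 count was worth 6.07 and 5.87 CPM (counts scaled to a common library total), so that members with few counts are known poorly in those libraries. The summed level of 4 miRNAs that mark mesenchymal MDA-MB-231 cells was 453934 to 685523 CPM, and that of 5 epithelial miRNAs was 129 to 425 CPM. Counts of the targeted miR-122-5p were 5 and 4 for control cells, 39 and 40 for knockdown cells and 0 and 0 for knockout cells. In EVs the counts were 790 and 651 in the control line, 7 and 5 in the knockdown line and 4 and 3 in the knockout line. Scaled for depth, miR-122-5p had 0.42 and 0.36 CPM in control cells and 12.3 and 12.7 in knockdown cells. Its EV levels were 331 and 251 CPM in the control line, 42.5 and 29.3 in the knockdown line and 1.07 and 0.95 in the knockout line. RAB27A is a protein-coding gene and was not measured. A list of 8 blood-cell miRNAs summed to 9867 to 11503 CPM in the control EVs and to 285 CPM or less in every other library; 5 stromal miRNAs (3183 to 3315 CPM against 115 or less) and 2 endothelial miRNAs (2648 to 2966 CPM against 276 or less) showed the same split.

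The family as a whole took from 0.577% to 1.89% of the miRNA counts, as group means. Summed over the 7 members, it reached 5775 CPM ± 1.29 (SD, n = 2, as for all means here) in the control cells, 8400.2 ± 365 in the knockdown cells and 9092 ± 620 in the knockout cells. The EVs held 8063 CPM ± 128 in the control line, 18870 ± 214 in the knockdown line and 7579 ± 364 in the knockout line. Each library of the knockdown and knockout cells lay above both control cell libraries. By total counts the knockdown EVs stood apart at the top of that range, against 0.806% in the control EVs. With library sizes scaled by TMM factors the gap was smaller, at 14301 CPM in the knockdown EVs and 11393 in the knockout cells. Control and knockout EVs then changed order, at 7361 and 8257 CPM.

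The guide strand hsa-miR-181a-5p made up most of these counts and ranked between 13 and 39 among all miRNAs of a library. Its levels were 4039.8 and 3996 CPM in the control cells, 6152 and 6653 in the knockdown cells, and 7041 and 7654 in the knockout cells. In EVs they were 5818 and 5664 CPM in the control line, 15031 and 14621.5 in the knockdown line, and 5049 and 5576 in the knockout line. The order of the groups was knockdown EVs, knockout cells, knockdown cells, control EVs, knockout EVs and control cells. Only the neighbours control EVs (5741 CPM ± 109) and knockout EVs (5313 ± 373) differed by less than the sum of their SDs.

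The next member, hsa-miR-181b-5p, moved over a narrower range. It had 1499.5 and 1521 CPM in the control cells, 1628 and 1644 in the knockdown cells and 1315 and 1527 in the knockout cells. In EVs it had 2137 and 2099 CPM in the control line, 3608 and 3680.3 in the knockdown line and 2047 and 2006 in the knockout line. All EV libraries thus lay above all cell libraries, and the control and knockout cells overlapped.

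The third 5p member, hsa-miR-181d-5p, was present at a far lower level. Its levels were 42.1 and 47.2 CPM in the control cells, 103 and 104 in the knockdown cells and 55.4 and 55.9 in the knockout cells. In EVs they were 32.7 and 36.6 CPM in the control line, 170.1 and 170.2 in the knockdown line and 46.6 and 45.5 in the knockout line. Both fractions of the knockdown line were above all other libraries, on 28 and 29 counts in its EVs, while the knockout EVs and the control cells overlapped.

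The rarest 5p member was hsa-miR-181c-5p. It had 7.35 and 6.33 CPM in the control cells, 25.3 and 25.2 in the knockdown cells and 18.1 and 25.8 in the knockout cells. In EVs it had 9.22 and 9.63 CPM (22 and 25 counts) in the control line, 42.5 and 58.7 (7 and 10 counts) in the knockdown line and 6.13 and 10.7 (23 and 34 counts) in the knockout line. The knockdown line and the knockout cells formed a high set, and the control cells, control EVs and knockout EVs a low one; within the low set the neighbouring groups overlapped.

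Among the 3p arms, miR-181a-3p was the most abundant and the flattest across groups, from 124 CPM in a control EV library to 217 in a knockout cell library. miR-181a-2-3p had 19.9 and 21.9 CPM in the control cells, 62.7 and 63.0 in the knockdown cells and 30.1 and 36.1 in the knockout cells. Its EV levels were 29.3 and 24.6 CPM in the control line, 24.3 and 29.3 (4 and 5 counts) in the knockdown line and 25.3 and 26.2 in the knockout line, so the 3 lines overlapped in EVs but not in cells. miR-181c-3p had 4.14 and 3.70 CPM in the control cells, 17.1 and 18.8 in the knockdown cells and 14.4 and 13.9 in the knockout cells. Its EV levels were 3.35 and 2.31 CPM (8 and 6 counts) in the control line, 6.07 and 17.6 (1 and 3 counts) in the knockdown line and 9.59 and 8.21 in the knockout line. The control line was thus lowest for miR-181c-3p in both fractions.

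**Figure D1:**
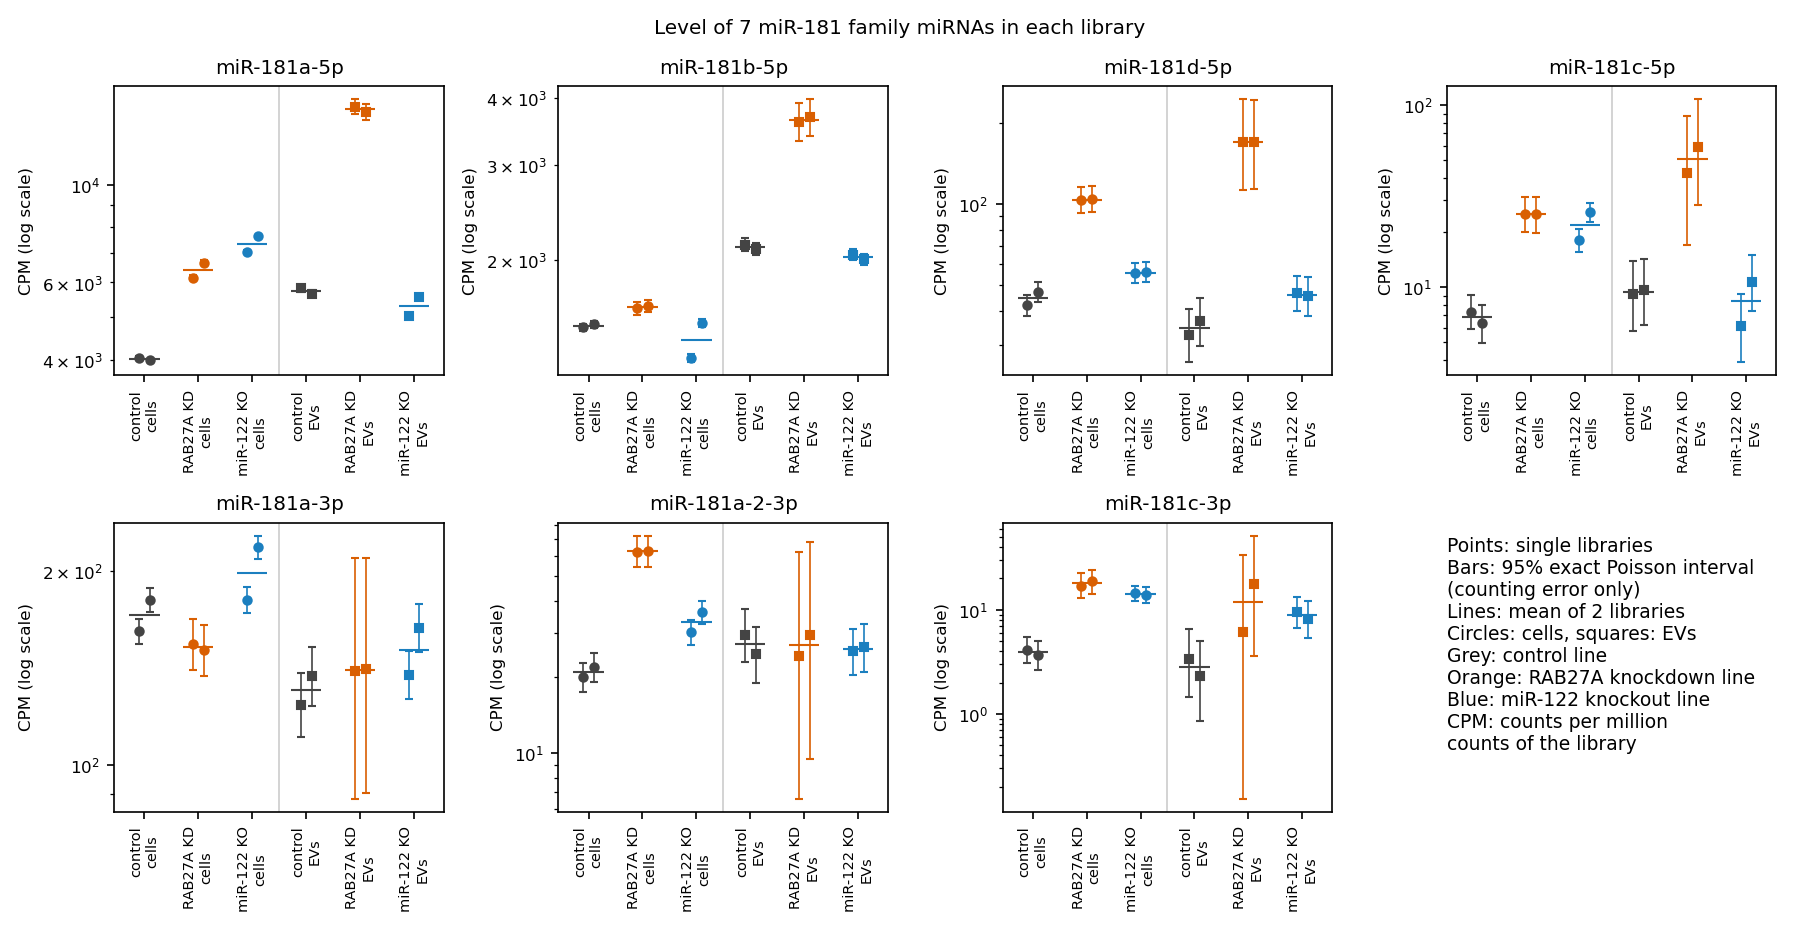
Level of each member in each library, in CPM on log axes whose ranges differ between panels. Points are libraries (circles cells, squares EVs), lines are means of 2 libraries, and bars are 95% exact Poisson intervals that cover counting error only; miR-181a-5p reaches 14621.5 and 15031 CPM in the knockdown EVs, and the intervals are widest there for the rare members.

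Members were next compared with each other inside each library, since a ratio of counts does not depend on how libraries are scaled. With 2 libraries against 2 an exact permutation test cannot go below p = 0.333, so the ratios are described and not tested. The ratio of miR-181a-5p to miR-181b-5p, the 2 main guide strands, was 2.69 and 2.63 in the control cells, 3.78 and 4.05 in the knockdown cells and 5.35 and 5.01 in the knockout cells. In EVs it was 2.72 and 2.70 in the control line, 4.17 and 3.97 in the knockdown line, and 2.47 and 2.78 in the knockout line. Cells and EVs of the control line and of the knockdown line were therefore close to each other in this ratio, whereas the knockout EVs fell 1.98-fold below the knockout cells and overlapped the control libraries. As a share of family counts, miR-181a-5p was 80.8% ± 0.740 in the knockout cells and 70.1% ± 1.55 in the knockout EVs, beside 69.6% ± 0.557 in the control cells.

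The same split of the knockout line was seen for miR-181c-5p relative to miR-181b-5p. That ratio was 0.00453 ± 0.000524 in the control cells, 0.0154 ± 0.000175 in the knockdown cells and 0.0153 ± 0.00223 in the knockout cells. In EVs it was 0.00445 ± 0.000194 in the control line, 0.0139 ± 0.00294 in the knockdown line and 0.00417 ± 0.00167 in the knockout line, the last 3.81-fold below the knockout cells on 57 counts of miR-181c-5p. For miR-181d-5p relative to miR-181b-5p, whose sequences differ only by C12U, the ratio rose from 0.0295 in the control cells to 0.0636 in the knockdown cells and from 0.0164 in the control EVs to 0.0467 in the knockdown EVs, with no overlap in either fraction.

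The 3p arms gave a way to set the 2 miR-181a genes side by side. The ratio of miR-181a-2-3p, the arm of MIR181A2, to miR-181a-3p, the arm of MIR181A1, was 0.124 and 0.121 in the control cells, 0.407 and 0.419 in the knockdown cells and 0.167 and 0.166 in the knockout cells. It was thus 3.37-fold higher in the knockdown than in the control cells. In EVs the ratio was 0.208 ± 0.0401 in the control line, 0.191 ± 0.0243 in the knockdown line and 0.172 ± 0.0162 in the knockout line, and the 3 lines overlapped. Relative to its own guide strand, miR-181a-3p was lowest in the knockdown EVs, at 0.00946 ± 0.000242, against 0.0228 ± 0.00205 in the control EVs and 0.0425 ± 0.00367 in the control cells. The arms of MIR181C were closer to each other. The ratio of miR-181c-3p to miR-181c-5p was 0.574 ± 0.0159 in control, 0.711 ± 0.0508 in knockdown and 0.666 ± 0.180 in knockout cells. In control, knockdown and knockout EVs it was 0.302 ± 0.0874, 0.221 ± 0.111 and 1.16 ± 0.566, on 14, 4 and 62 counts of miR-181c-3p.

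**Figure D2:**
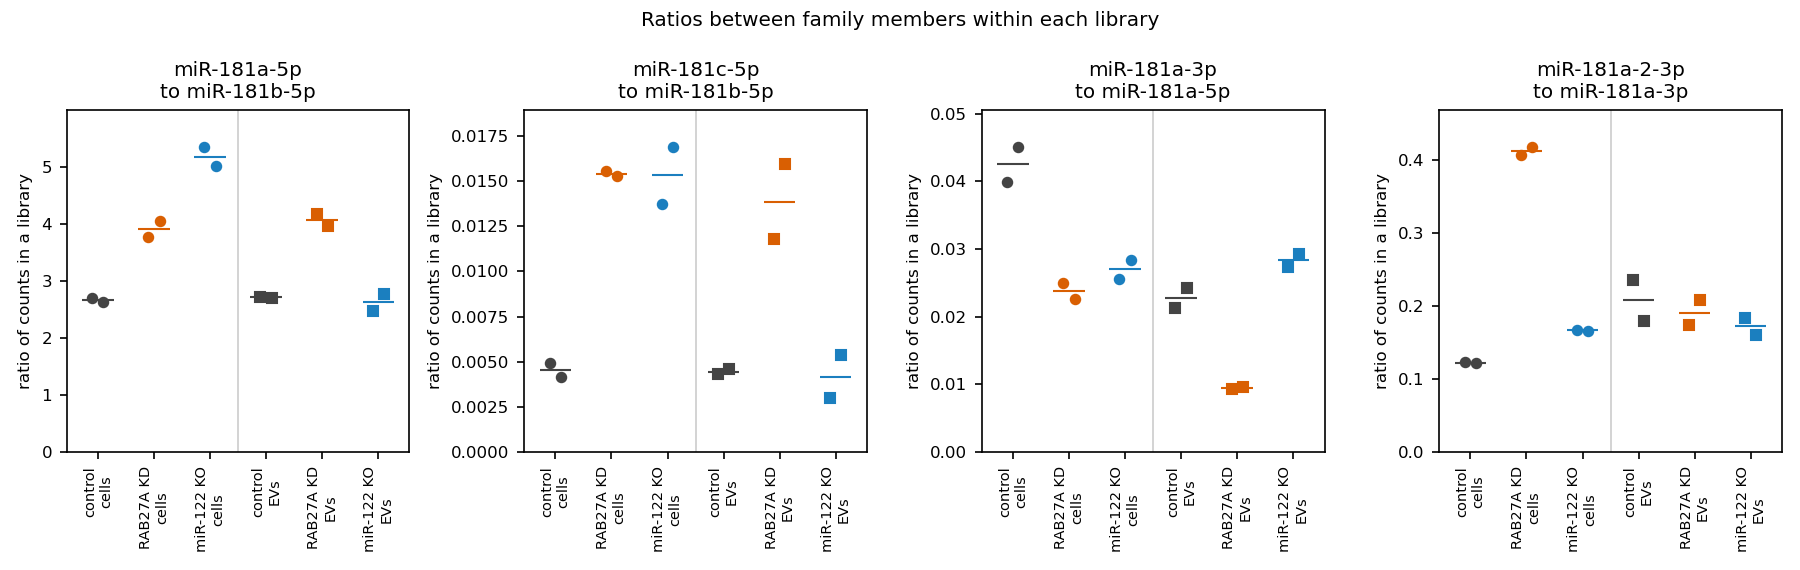
Ratios of counts between members within each library (linear axes from 0; points are libraries, lines are means of 2 libraries, circles cells and squares EVs). The ratio of miR-181a-5p to miR-181b-5p is 5.01 to 5.35 in the knockout cells and 2.47 to 2.78 in the knockout EVs, and the ratio of miR-181a-2-3p to miR-181a-3p reaches 0.407 to 0.419 only in the knockdown cells.

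In the knockdown cells, 5 of the 7 members rose against the control cells and none fell. These and all following calls are from edgeR's quasi-likelihood test with Benjamini-Hochberg adjustment over all miRNAs tested (adjusted p below 0.05). The background was high: 53.8% of the 613 tested miRNAs passed and 24.3% were higher, and the median log2 fold change was 1.23 over the members and -0.11 over all miRNAs. Both products of MIR181C rose, miR-181c-5p by 1.90 on the log2 scale (SE 0.22, adjusted p = 3.2e-07) and miR-181c-3p by 2.20 (SE 0.26, adjusted p = 3.54e-07). The neighbouring MIR181D gave miR-181d-5p at 1.23 (SE 0.16, adjusted p = 1.18e-06), and the MIR181A2 arm miR-181a-2-3p was at 1.60 (SE 0.17, adjusted p = 9.22e-08). The guide miR-181a-5p rose less, by 0.69 (SE 0.11, adjusted p = 1.75e-05). miR-181a-3p, at -0.15 (adjusted p = 0.358), and miR-181b-5p, at 0.13 (adjusted p = 0.337), did not pass. Without the low-count filter miR-181a-3p passed as lower (-0.38, adjusted p = 0.0376), and miR-181b-5p was at -0.10. miR-181b-5p passed as higher with RLE size factors (0.26), with DESeq2 (0.26) and with only the libraries compared (0.16). In these bulk libraries, a change in how many cells make a miRNA and a change in its amount per cell cannot be told apart.

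Of the 3 further arms of the family in the table, 2 were called in the knockdown cells, in opposite directions. miR-181b-3p, the discarded arm of MIR181B1, fell by 1.29 (SE 0.21, adjusted p = 2.98e-05), from 29.2 and 28.2 CPM to 12.3 and 10.8. miR-181b-2-3p, the arm of MIR181B2, rose by 1.04 (SE 0.39, adjusted p = 0.0296), on 46 counts in the control and 26 in the knockdown cells. Of the chromosome 1 pair, miR-181a-3p and miR-181b-3p did not rise, while of the chromosome 9 pair both miR-181a-2-3p and miR-181b-2-3p did. miR-181d-3p, at 24 and 11 counts, did not pass (0.75, adjusted p = 0.33).

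In the knockout cells, 6 of the 7 members rose against the same control libraries and none fell, where 62.3% of the 613 tested miRNAs passed, 27.7% higher and 34.6% lower. The median log2 fold change was 1.00 over the members and -0.08 over all miRNAs. As in the knockdown cells, the products of MIR181C were at the top, miR-181c-3p with 2.19 (SE 0.23, adjusted p = 7.73e-08) and miR-181c-5p with 2.01 (SE 0.20, adjusted p = 3.32e-08). miR-181a-5p rose by 1.21 (SE 0.11, adjusted p = 6.79e-09), and its 3p arms rose too, miR-181a-2-3p by 1.00 (SE 0.16) and miR-181a-3p by 0.55 (SE 0.13). miR-181d-5p rose by 0.66 (SE 0.15, adjusted p = 0.00085). miR-181b-5p did not pass at 0.25 (SE 0.11, adjusted p = 0.0526), but it did with RLE size factors (0.35, adjusted p = 0.00618), with DESeq2 (0.35, adjusted p = 0.000686), after thinning to the shallowest library (0.23, adjusted p = 0.033) and without knockout cell replicate 2 (0.26, adjusted p = 0.00126). None of the 3 further arms passed. The knockout comparison leaned on the scaling: when libraries were scaled by total counts instead of TMM factors, the median of all miRNAs moved by -0.34, the share of calls that were higher went from 44.5% to 32.4%, miR-181b-5p turned to -0.09, and miR-181a-3p (0.22, adjusted p = 0.173) and miR-181d-5p (0.32, adjusted p = 0.0643) were lost. These 2 calls were also lost without control cell replicate 1 (miR-181a-3p 0.36 and miR-181d-5p 0.47). The knockdown and knockout comparisons share their control libraries, so a like direction in both is not independent.

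In the knockdown EVs, 4 of the 7 members rose against the control EVs and none fell, where 46.3% of the 488 tested miRNAs passed and 18.9% were higher. All 4 were 5p arms: miR-181c-5p by 2.30 (SE 0.50, adjusted p = 0.00223), miR-181d-5p by 2.18 (SE 0.24, adjusted p = 7.05e-06), miR-181a-5p by 1.25 (SE 0.10, adjusted p = 7.09e-07) and miR-181b-5p by 0.67 (SE 0.11, adjusted p = 0.000239). The 3p arms miR-181a-3p (-0.01, SE 0.23), miR-181a-2-3p (-0.12, SE 0.45) and miR-181c-3p (1.94, SE 0.90, adjusted p = 0.0937) did not pass; they rest on 47, 9 and 4 counts in the knockdown EVs, and their SEs leave room for sizeable changes. miR-181b-2-3p had 0 counts in both knockdown EV libraries, which allows up to 8.95 CPM over the group, above its 4.25 CPM in the control EVs. The median over all tested miRNAs was -0.29 and over the members 1.25. The call of miR-181c-5p was lost without knockdown EV replicate 2 (1.82, adjusted p = 0.066), and with total counts the median of all miRNAs moved by 0.12. The control EVs differed from the knockdown EVs in the marker lists as well: blood-cell miRNAs stood at 9867 to 11503 against 170.1 to 252 CPM, with miR-144-5p, miR-223-3p and miR-150-5p at 0 in the knockdown EVs, and stromal miRNAs at 3183 to 3315 against 112 to 115 CPM, with 3 of 5 at 0. The part of these miRNAs in the family's result was not tested.

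In the knockout EVs the picture differed from that in the knockout cells. Against the control EVs 4 of the 7 members rose and none fell, where 41.2% of the 488 tested miRNAs passed and 18.9% were higher, but apart from miR-181c-3p the changes were below 1 on the log2 scale. miR-181c-3p rose by 2.02 (SE 0.40, adjusted p = 0.00121), miR-181d-5p by 0.79 (SE 0.16, adjusted p = 0.00134), miR-181a-3p by 0.58 (SE 0.14, adjusted p = 0.00377) and miR-181b-5p by 0.31 (SE 0.10, adjusted p = 0.0298). miR-181a-5p (0.26, adjusted p = 0.0527), miR-181a-2-3p (0.31, adjusted p = 0.221) and miR-181c-5p (0.19, SE 0.33, adjusted p = 0.698) did not pass. With total counts the median of all miRNAs moved by -0.37, the share of calls that were higher went from 45.8% to 19.2%, and only miR-181c-3p was still called; miR-181a-5p (-0.11), miR-181b-5p (-0.06), miR-181a-2-3p (-0.07) and miR-181c-5p (-0.19) then changed sign. Leaving out a library ended the call of miR-181a-3p (0.36 without control EV replicate 1, 0.54 without control EV replicate 2), of miR-181c-3p (1.66 without control EV replicate 2) and of miR-181b-5p (0.13 to 0.31, adjusted p from 0.0749 to 0.421, without any library but knockdown EV replicate 1). The call of miR-181b-5p was lost as well with RLE size factors (0.21, adjusted p = 0.132), without the low-count filter (0.27, adjusted p = 0.222) and with only the libraries compared (0.23, adjusted p = 0.0633), and after thinning those of miR-181a-3p (0.38) and miR-181d-5p (1.13) were lost. The marker lists differ between these groups too, with all 8 blood-cell miRNAs detected in both and a sum of 147 to 217 CPM in the knockout EVs, and their part in the result was not tested.

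**Figure D3:**
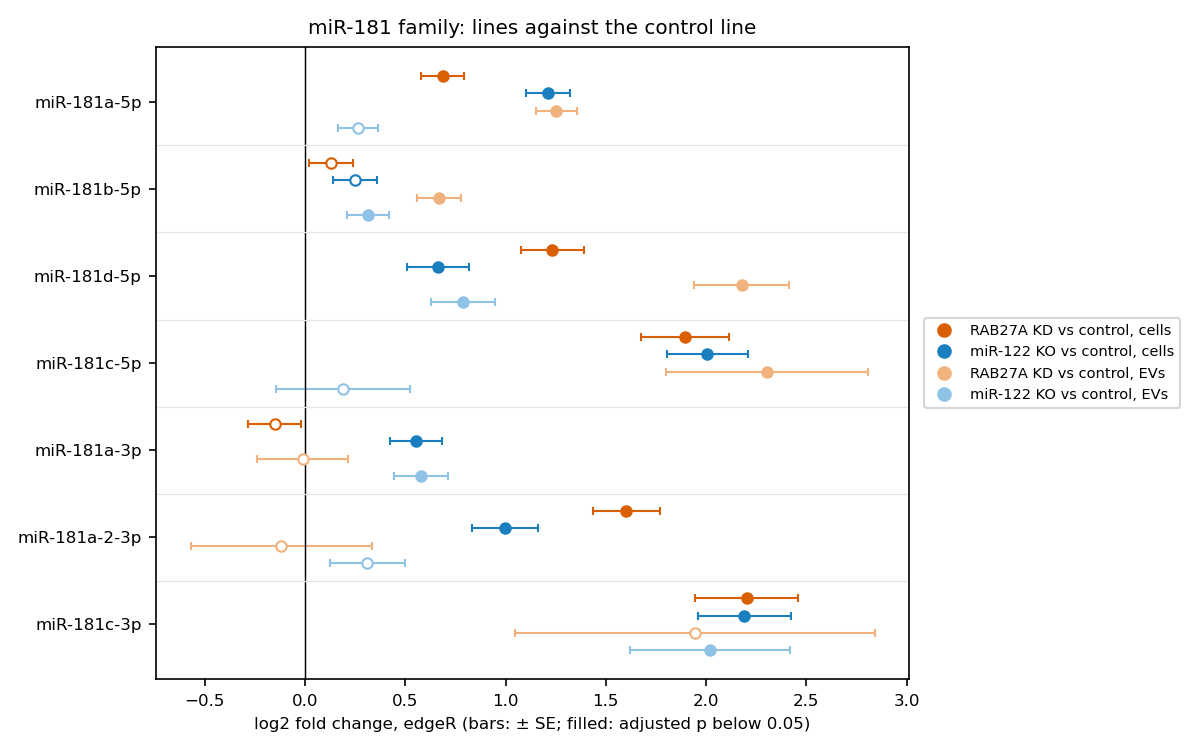
Log2 fold change of each member between a line and the control line, in cells and in EVs, from edgeR with TMM factors; bars are ± SE and filled points have an adjusted p below 0.05. miR-181c-5p is near 2 in both cell comparisons and in the knockdown EVs and at 0.19 in the knockout EVs, and the sign of the small knockout EV values of miR-181a-5p, miR-181b-5p, miR-181a-2-3p and miR-181c-5p turns with total counts.

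EVs were then set against the cells that released them. In the control line, 2 of the 7 members were higher in EVs and 2 were lower, where 53.7% of 574 tested miRNAs passed, 30.8% higher and 22.8% lower. The main guide strands miR-181a-5p (0.38, SE 0.11, adjusted p = 0.00342) and miR-181b-5p (0.35, SE 0.11, adjusted p = 0.00664) were higher in EVs, and miR-181a-3p (-0.53, SE 0.14, adjusted p = 0.00158) and miR-181d-5p (-0.50, SE 0.18, adjusted p = 0.014) were lower. Without the low-count filter the values of miR-181a-5p and miR-181b-5p were -0.0006 and -0.03 and did not pass, and with total counts the median of all miRNAs moved by 0.14 and miR-181d-5p lost its call (-0.36, adjusted p = 0.0775). After thinning, miR-181a-3p (-0.24) and miR-181d-5p (-0.51) did not pass. The calls of miR-181a-5p and miR-181b-5p were lost without any 1 of 6 libraries (0.16 to 0.39 for miR-181a-5p). These were either control cell library, either knockdown EV library, knockdown cell replicate 1 or knockout cell replicate 2. The call of miR-181b-5p was lost without control EV replicate 2 too (0.14 to 0.38 over its 7 cases). No member passed without control cell replicate 2. The calls of miR-181a-3p and miR-181d-5p were lost without that library (-0.42 and -0.39) or without control EV replicate 1 (-0.39 and -0.36). Blood-cell miRNAs summed to 269 to 285 CPM in the control cells, with miR-223-3p and miR-150-5p at 0, and to 9867 to 11503 CPM in the control EVs; their part in the result was not tested.

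In the knockdown line the guide strands were again higher in EVs, miR-181a-5p by 0.74 (SE 0.11, adjusted p = 5.16e-07) and miR-181b-5p by 0.68 (SE 0.12, adjusted p = 5.09e-06). miR-181a-2-3p was lower in EVs, at -1.70 (SE 0.41, adjusted p = 0.00113), on 9 counts in EVs and 396 in cells. These 3 members were called where 19.3% of the 574 tested miRNAs passed, 7.32% higher in EVs and 12% lower, and the other 4 did not pass. Among these, miR-181a-3p, at -0.59 (adjusted p = 0.0625), passed as lower in EVs without any 1 of 8 of the 12 libraries (-0.76 to -0.65, adjusted p from 0.00743 to 0.0469), and the call of miR-181a-2-3p was lost after thinning (-1.42, adjusted p = 0.0527). With total counts the median of all miRNAs moved by 0.29 and the share of calls that were higher in EVs went from 37.8% to 75.6%; miR-181d-5p then passed at 0.71 (adjusted p = 0.0191).

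In the knockout line all 7 members were called, 1 higher in EVs and 6 lower, where 59.1% of the 574 tested miRNAs passed, 33.3% higher and 25.8% lower. The median log2 difference was -0.60 over the members and 0.04 over all miRNAs. miR-181b-5p alone was higher in EVs, at 0.31 (SE 0.11, adjusted p = 0.0137), and it stood at -0.07 without the low-count filter. miR-181c-5p had the lowest value, -1.60 (SE 0.26, adjusted p = 5.06e-07), followed by miR-181c-3p at -0.87 (SE 0.26) and miR-181a-5p at -0.67 (SE 0.11, adjusted p = 8.71e-07). miR-181a-3p was at -0.60, miR-181a-2-3p at -0.56 and miR-181d-5p at -0.48. Of these calls, those of miR-181a-5p and miR-181c-5p held without each of the 12 libraries in turn. Without knockout EV replicate 1 those of miR-181a-3p (-0.36), miR-181a-2-3p (-0.41) and miR-181d-5p (-0.37) were lost, without knockout EV replicate 2 those of miR-181b-5p (0.33), miR-181c-3p (-0.76) and miR-181d-5p (-0.46), and without knockout cell replicate 1 that of miR-181d-5p (-0.31). With total counts the median of all miRNAs moved by 0.20, and miR-181a-2-3p (-0.36) and miR-181d-5p (-0.27) were lost. A GC correction ended the calls of miR-181a-2-3p (-0.24, adjusted p = 0.29) and miR-181c-3p (-0.54, adjusted p = 0.0762), RLE size factors that of miR-181b-5p (0.21, adjusted p = 0.101), and a fit of only the libraries compared that of miR-181d-5p (-0.41, adjusted p = 0.051). After thinning, 5 members could be tested and only miR-181a-5p passed (-0.80).

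**Figure D4:**
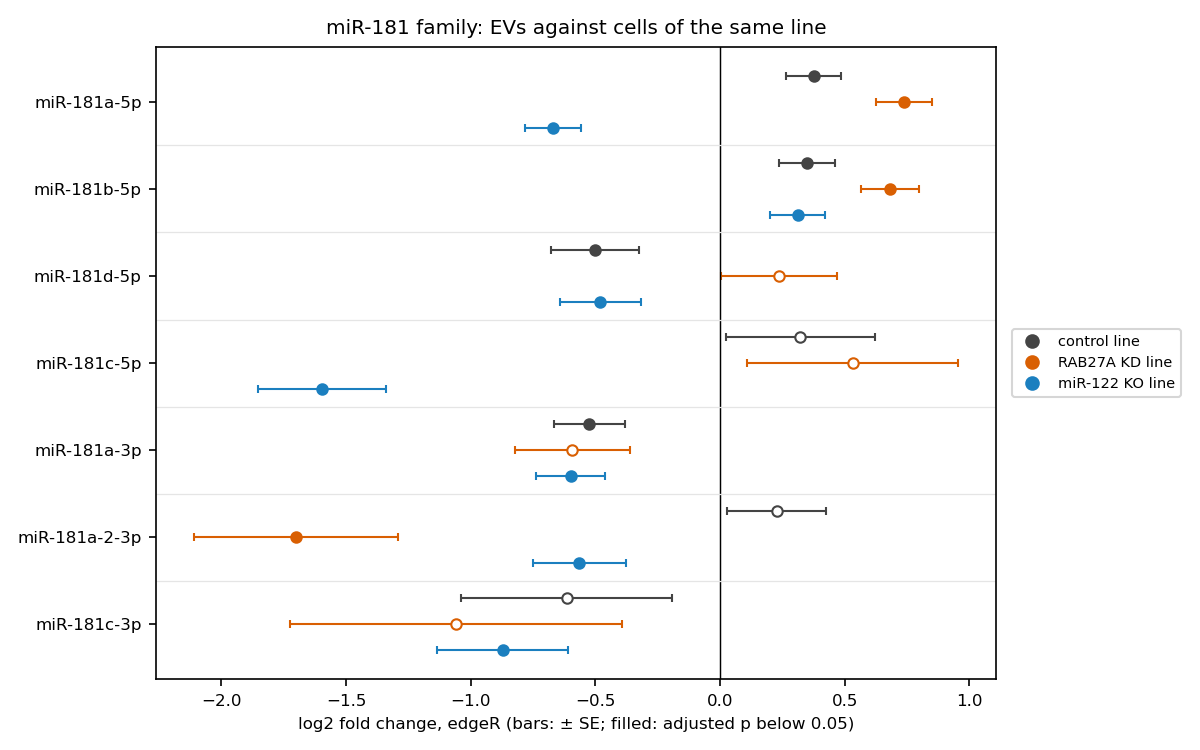
Log2 fold change of each member in EVs against cells of the same line, from the edgeR fit of all 12 libraries; bars are ± SE and filled points have an adjusted p below 0.05. miR-181a-5p lies at 0.38 and 0.74 in the control and knockdown lines and at -0.67 in the knockout line, and miR-181c-5p at 0.32, 0.53 and -1.60; without the low-count filter miR-181a-5p in the control line is at -0.0006.

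Whether the difference between EVs and cells itself changed with the line was tested as an interaction. For the knockdown against the control line, 1 of the 7 members passed, where 18.6% of the 574 tested miRNAs did, 4.36% higher and 14.3% lower. This was miR-181a-2-3p at -1.93 (SE 0.46, adjusted p = 0.00113): its libraries did not overlap between knockdown and control cells, where the fold change was 1.60 on the log2 scale, and they overlapped in EVs. miR-181a-5p (0.36, adjusted p = 0.104), miR-181d-5p (0.74, adjusted p = 0.0697) and miR-181b-5p (0.33, adjusted p = 0.154) did not pass. With total counts they stood at 0.70, 1.07 and 0.67 and passed. That setting moved the median of all miRNAs by 0.33 and the share of calls that were higher from 23.4% to 52.6%. miR-181a-5p passed as higher under 6 of 9 alternative settings, among them DESeq2 (0.42, adjusted p = 0.0096) and a GC correction (0.44, adjusted p = 0.0369). miR-181d-5p and miR-181b-5p each passed under 4 of 9.

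For the knockout against the control line, 3 of the 7 members passed, all lower, where 48.3% of the 574 tested miRNAs passed and 23.3% were lower. miR-181a-5p was at -1.05 (SE 0.16, adjusted p = 1.5e-07) and miR-181c-5p at -1.92 (SE 0.40, adjusted p = 7.86e-05), and both calls held without each of the 12 libraries in turn. miR-181a-2-3p, at -0.79 (SE 0.27, adjusted p = 0.0142), lost its call without any 1 of 6 libraries (replicate 1 of the control cells, knockdown cells, control EVs or knockout EVs, or replicate 2 of the knockout cells or knockdown EVs; -0.68 to -0.55). It was also lost without the low-count filter (-0.79, adjusted p = 0.0681), with a GC correction (-0.52, adjusted p = 0.125), with only the libraries compared (-0.61, adjusted p = 0.0706) and after thinning (-2.15, adjusted p = 0.174). For miR-181b-5p the value was -0.04 (SE 0.16), for miR-181a-3p -0.07 (SE 0.20), for miR-181d-5p 0.02 (SE 0.24) and for miR-181c-3p -0.26 (SE 0.53); these 4 did not pass, and each of them changed sign under some scaling or correction. The interaction of both lines uses the same control libraries, including the control EVs with the high blood-cell miRNAs, whose part in it was not tested.

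The 4 guide strands did not all follow the same course over the 6 group means on the log2(CPM + 1) scale. Pearson's r was 0.92 between miR-181a-5p and miR-181c-5p, 0.91 between miR-181c-5p and miR-181d-5p and 0.82 between miR-181a-5p and miR-181d-5p. It was 0.76 between miR-181a-5p and miR-181b-5p and 0.52 between miR-181b-5p and miR-181c-5p. These are descriptions over 6 points that share libraries and depth. Among 202 other miRNAs with a mean of at least 50 CPM, the courses most like that of miR-181a-5p were those of miR-877-5p (r = 0.92), miR-21-5p (0.89) and miR-99b-3p (0.87). For miR-181b-5p they were those of miR-7704 (0.97), miR-6087 (0.96) and miR-30b-5p (0.96), of which miR-7704 and miR-6087 had group means of 8.57 CPM or less in cells. miR-146a-5p (0.97), miR-197-3p (0.96) and miR-877-5p (0.94) were closest to miR-181c-5p, and miR-30a-5p (0.99), miR-330-3p (0.96) and miR-197-3p (0.95) to miR-181d-5p. miR-146a-5p, an immune-related miRNA, went from 4769 CPM in the control cells to 53399 in the knockdown cells and 24210.4 in the knockout cells, and from 7419 CPM in the control EVs to 90271 in the knockdown EVs and 11568 in the knockout EVs. With a level minimum of 200 CPM in place of 50, 1 of the 3 names was kept for each of the 4 members.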

How the data were processed

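The deposited table holds counts, whole reads per mature miRNA and library; per the submitters' processing notes the authors used cutadapt and Bowtie with hg19, and their versions, allowed mismatches and treatment of ambiguous reads were not given in the sources used here. Per the labels' protocols, small RNAs of 17 to 52 nt were sequenced. Of 2588 miRNAs, 869 had no count. CPM were computed from the total count of each library. Counts were tested with edgeR 4.0.16 (R 4.3.3; filterByExpr, TMM factors, robust quasi-likelihood fit, Benjamini-Hochberg adjustment, threshold 0.05), fitted to the 6 cell libraries, the 6 EV libraries, or all 12 for comparisons of EVs with cells; the SE is the log2 fold change divided by the square root of F. The procedure was run on counts simulated from each fit's own means and spread, with rises and falls drawn at equal chance. Such data cannot show how it holds under shifts in the make-up of the libraries. Intervals cover counting error only. Replicate pairs differed by more than sampling noise (chi-square per degree of freedom from 8.75 to 211), so each library counted once.

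Alternatives were RLE size factors, total counts, no filter, DESeq2 1.42.0, a replicate block, a GC offset, thinning, fits of only the groups compared, and leaving out each library. The text names all 7 members, the 3 other arms of the family, miRNAs with the same seed, and for each 5p member the 3 miRNAs with the highest Pearson correlation of group means. The members and lists were chosen with earlier results of these data known.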

Additional observations from a re-analysis of the deposited data

Results flagged for a closer look

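The 4 values given here were flagged because the difference between EVs and cells depended on the line. The test was edgeR's quasi-likelihood interaction test over all 12 libraries with Benjamini-Hochberg adjustment. Of the 574 tested miRNAs, 18.6% passed for the knockdown line (14.3% lower) and 48.3% for the knockout line (23.3% lower). The call of 1 of 7 members in the knockdown line was thus near the share over all miRNAs. For the knockdown against the control line, miR-181a-2-3p was at -1.93 (SE 0.46, adjusted p = 0.00113), with 9 counts in the knockdown EVs and CPM higher in 2 of 2 knockdown than in the control cell libraries. For the knockout against the control line, miR-181a-5p was at -1.05 (SE 0.16, adjusted p = 1.5e-07), miR-181c-5p at -1.92 (SE 0.40, adjusted p = 7.86e-05) and miR-181a-2-3p at -0.79 (SE 0.27, adjusted p = 0.0142). This last call was lost under 5 of 9 alternative settings (with a GC correction -0.52, adjusted p = 0.125) and without any 1 of 6 of the 12 libraries. The ratio of miR-181a-5p to miR-181b-5p within a library was 5.01 to 5.35 in the knockout cells and 2.47 to 2.78 in the knockout EVs. In the control line it was 2.63 to 2.69 in cells and 2.70 to 2.72 in EVs. This ratio needs no scaling of libraries, but it comes from the same counts and is not separate support. It also moves with miR-181b-5p, at 0.31 in the knockout EVs against cells, and does not cover miR-181c-5p or miR-181a-2-3p.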

How the results depend on the processing

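Of 1138 values of single members under alternatives, 976 kept their direction and side of the threshold, 34 became called, 73 lost the call and 55 changed sign; the cause was not tested. Members called in the knockout EVs went from 4 to 1 with total counts, where 219 of 488 miRNAs passed. They went to 1 after thinning to the shallowest library, where 71 of 228 miRNAs passed. Thinning left 4 of the 7 testable in EVs and 5 for EVs against cells. EVs against cells of the control line went from 4 to 2 without the filter (356 of 1719 miRNAs passed) and 2 thinned (115 of 244). In the knockout line the members called went from 7 to 1 thinned (117 of 244). The knockdown interaction went from 1 to 4 with total counts (114 of 574 miRNAs passed). It was also 4 without the filter (83 of 1719) and with DESeq2 (134 of 574). It was 3 with a GC correction (119 of 574) or thinned (50 of 244), and 2 with block and GC (117 of 574). The knockout interaction went from 3 to 1 thinned (102 of 244). The family level on TMM sizes was 5805.6, 8848 and 11393 CPM in control, knockdown and knockout cells, and 7361, 14301 and 8257 CPM in their EVs. The control EVs were then below the knockout EVs, the reverse of their order by total counts. Leaving out 1 library gave 1 to 4 members in the knockout EVs, 0 to 4 and 4 to 7 for EVs against cells of the control and knockout lines, and 1 to 3 for the knockdown interaction.

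Signs changed as follows. Knockdown cells without the filter: miR-181b-5p -0.10. With total counts miR-181b-5p was -0.088 in the knockout cells, and the knockout EVs had miR-181a-5p -0.11, miR-181a-2-3p -0.065, miR-181b-5p -0.064 and miR-181c-5p -0.19. miR-181a-3p in the knockdown EVs was 0.10 with total counts, 0.10 with only the libraries compared and 0.11 thinned. For EVs against cells without the filter, the control line had miR-181a-5p -0.00061, miR-181a-2-3p -0.14, miR-181b-5p -0.027 and miR-181c-5p -0.056, and the knockout line miR-181b-5p -0.065. In the knockdown interaction miR-181a-3p was 0.27 with total counts, 0.27 without the filter, 0.011 with GC, 0.0083 with block and GC and 0.18 thinned. In the knockout interaction miR-181d-5p was -0.13 with RLE and -0.13 with DESeq2, -0.10 with GC, -0.10 with block and GC and -0.35 thinned. There miR-181b-5p was 0.024 with total counts, 0.023 with GC, 0.023 with block and GC and 0.14 with only the libraries compared. miR-181a-3p was 0.062, 0.058 and 0.10 under the last 3 of these, and miR-181c-3p 0.017 with GC and 0.011 with block and GC. Leaving out 1 library spread miR-181c-5p over -0.26 to 0.54 in the knockout EVs. It spread the knockdown interaction of miR-181a-3p over -0.26 to 0.029, of miR-181c-3p over -1.40 to 0.094 and of miR-181c-5p over -0.034 to 0.40. In the knockout interaction the ranges were -0.060 to 0.21 for miR-181d-5p, -0.23 to 0.17 for miR-181a-3p, -0.045 to 0.18 for miR-181b-5p and -0.45 to 0.020 for miR-181c-3p.

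Deviations of same-numbered replicates correlated at -0.29 to 0.50 over 15 pairs of groups, 6 of them above 0.1. The correlation was 0.50 between control and knockdown cells and 0.23 between control and knockout cells. With 2 libraries per group, these values cannot decide whether the replicate numbers pair libraries. For the replicate block, the share of all miRNAs that passed is not given beside the members called. With the replicate block the members called were 5 and 7 in knockdown and knockout cells, 4 and 3 in their EVs, 4, 3 and 7 for EVs against cells of the control, knockdown and knockout lines, and 1 and 3 for the interactions; miR-181b-5p was then called in the knockout cells (adjusted p = 0.0497) and lost in the knockout EVs (adjusted p = 0.0711). With block and GC the calls of miR-181b-5p in the knockout EVs (adjusted p = 0.0941), of miR-181a-2-3p (0.314) and miR-181c-3p (0.0855) in EVs against knockout cells and of miR-181a-2-3p in the knockout interaction (0.14) were lost. Depth limits the knockdown EVs most, where miR-181a-2-3p, miR-181c-5p and miR-181c-3p had 10 counts or fewer per library.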
